A study of Sus scrofa with 6 samples.

Results

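The genes of DNA replication and nucleotide supply were followed in the lungs of piglets around birth. Their list of 55 symbols was chosen by function, with earlier results of these data known. A row of the mRNA table belonged to the list when its pig Ensembl gene identifier carried one of the symbols. For GINS2 the symbol came only from the authors' list of differentially expressed mRNAs, so that it has a row here because these samples had already been found to differ, and its values are a description. Rows were matched for 42 of the 55 genes, of 14579 mRNA rows in all. No row was matched for MCM6, MCM7, MCM10, GINS1, GINS4, POLD3, POLE, PCNA, FEN1, RRM2, TYMS, DUT and TK1, which were not analysed here. Total RNA of whole lung was sequenced from female hybrid piglets of a Tibetan father and a Meishan mother. The fetal group (prenatal in the labels) held 3 piglets taken on the last day before birth from 3 sows. The neonatal group held 3 piglets of similar weight taken 2 days after birth, from 3 other sows. The parents were fed and reared in the same way until caesarean and parturition. The pigs were killed by exsanguination after an injection of ketamine. One library was made per piglet, and no experimental treatment is described for either group.

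Before a cell copies its DNA, the origin recognition complex (ORC), CDC6 and CDT1 load the MCM2 to MCM7 ring onto origins, a step called licensing. The kinase CDC7 with its partner DBF4 then starts the ring, which becomes the active helicase together with CDC45 and the GINS complex. DNA polymerase alpha with primase lays down primers, polymerases delta and epsilon extend them, and replication factor C (RFC) loads the sliding clamp PCNA that holds the polymerases on DNA. Many of these genes are transcribed under E2F factors as cells leave quiescence, so in tissues their mRNAs are widely used as signs of dividing cells.

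Of the 42 genes with a row, 20 rose in the neonatal group and none fell (limma with Benjamini-Hochberg adjustment over all mRNAs, adjusted p of 0.05 or less), while 6.87% of all mRNAs passed, 5.41% rising and 1.45% falling. An unadjusted p under 0.05 was reached by 25 of the 42, each higher in the neonatal group, and by 24.2% of all mRNAs. The increase was led by the MCM ring genes MCM4, MCM5 and MCM2 and by the loader CDT1. Values are in FPKM, fragments scaled to transcript length and to the mapped fragments of the library, and log2(FC) is the neonatal minus the fetal mean of log2(FPKM + 1), a scale that understates the change of genes with low FPKM. The median log2(FC) was 0.84 over the 42 genes and 0.13 over all mRNAs. In 29 of the 42 genes the lowest neonatal value exceeded the highest fetal one, as in 20.9% of all mRNAs, and in none did the neonatal values all lie below the fetal ones, as in 9.64% of all mRNAs. For the other 13 the groups overlapped, so that 29 genes were free of overlap, against 30.5% of all mRNAs. The call count depended on single libraries: it was 11, 7 and 11 without Fetal1, Fetal2 or Fetal3, and 17, 7 and 9 without Neonatal1, Neonatal2 or Neonatal3. CDT1, MCM2, MCM3, MCM4 and POLD1 were past the threshold whichever sample was left out.

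The authors kept mRNAs with FPKM above 0.5 in at least 1 sample. ORC1, CDC6 and CLSPN passed this only through the neonatal group, so the highest value of each had to be a neonatal one. Without these 3 and GINS2, 18 of 38 genes rose and none fell in limma, an unadjusted p under 0.05 was reached by 22, the median log2(FC) was 0.75, and 26 had no overlap. Of all mRNAs 5.41% rose, 24.2% reached that unadjusted p and 30.5% had no overlap. The summed FPKM of the 42 genes was 224, 206 and 210 in the fetal samples and 412, 476 and 540 in the neonatal samples, and that of the 38 lay between 202 and 217 before birth and between 389 and 501 after it. As a share of all mRNA FPKM it was 0.0526% ± 0.00815 before birth and 0.0774% ± 0.00737 after it (SD, n = 3 each). In whole lung, more dividing cells and more of each mRNA per cell cannot be told apart.

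**Figure D1:**
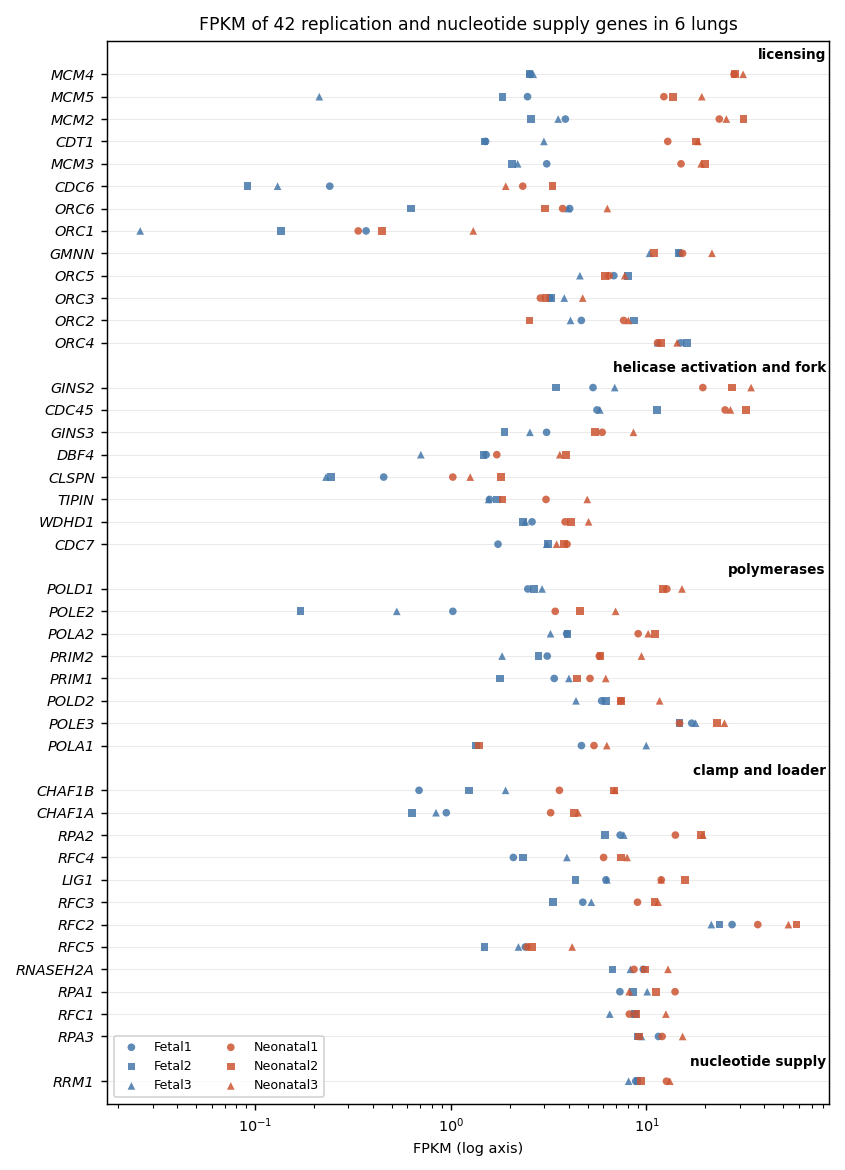
FPKM (horizontal, log axis) of each of the 42 genes with a row in the 3 fetal samples (blue) and the 3 neonatal samples (orange), grouped by role and ordered by log2(FC) within a role. MCM2 to MCM5 and CDT1 separate widely between the groups, whereas the points of ORC2 to ORC5 and of POLA1 lie among each other.

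Of the 15 licensing genes, 13 had a row, of which 6 rose and 7 did not pass the test, while 5.41% of all mRNAs rose. Without CDC6 and ORC1, 5 of 11 rose. The genes that rose were MCM2, MCM3, MCM4, MCM5, CDC6 and CDT1, and those that did not pass were ORC1 to ORC6 and GMNN.

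MCM2 to MCM5 encode subunits of the ring-shaped helicase. MCM4 stood at 2.53, 2.53 and 2.64 FPKM in Fetal1 to Fetal3, in this order, and reached 28.0, 28.3 and 31.2 FPKM in Neonatal1 to Neonatal3. The samples of each group lay close together, and the groups were far apart. Its log2(FC) of 3.08 (standard error 0.16, adjusted p = 4.83e-04 in limma) was the highest of the 42 genes. MCM2 was measured at 3.85, 2.57 and 3.54 FPKM before birth and at 23.5, 31.3 and 25.6 FPKM after birth (log2(FC) 2.69, adjusted p = 0.00147). MCM3 stood at 3.09, 2.05 and 2.196 FPKM before birth and at 15.0, 19.9 and 19.0 FPKM after it (log2(FC) 2.46, adjusted p = 0.00192). In both genes the lowest neonatal value was several times the highest fetal one. MCM5 had 2.47, 1.84 and 0.213 FPKM before birth and 12.3, 13.7 and 19.2 FPKM after birth (log2(FC) 2.79, adjusted p = 0.0103). Fetal3 was far below the other fetal samples for MCM5 and not for MCM2, MCM3 or MCM4. Without Fetal2, Neonatal2 or Neonatal3, MCM5 missed the threshold, with adjusted p values between 0.0576 and 0.0634.

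Products of these genes join the ring in equal numbers, so their levels per transcript length were compared within samples. The highest of MCM2 to MCM5 was 1.56 and 1.40 times the lowest in Fetal1 and Fetal2, and 16.6 times in Fetal3, owing to MCM5. In the neonatal samples it was 2.28, 2.29 and 1.64 times the lowest. MCM4 or MCM2 was the highest of them in each neonatal sample and MCM5 the lowest in Neonatal1 and Neonatal2.

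CDT1, which brings the ring to the origin, rose from 1.51, 1.48 and 2.99 FPKM to 12.8, 17.9 and 18.3 FPKM (log2(FC) 2.56, standard error 0.26, adjusted p = 0.00373). CDC6, the ATPase that acts with it, was at 0.241, 0.0916 and 0.130 FPKM before birth and at 2.33, 3.31 and 1.91 FPKM after birth (log2(FC) 1.59). CDC6 passed the filter only through the neonatal group, so its highest value had to lie there and its test is not given. Its call was also lost without Fetal2. Its neonatal mean FPKM was 16.3 times the fetal mean, the largest such ratio of the 42 genes, in a direction favoured by the filter and at a level that stayed low. GMNN encodes geminin, which binds CDT1 and blocks relicensing. It stood at 14.8, 14.6 and 10.4 FPKM before birth and at 15.3, 10.9 and 21.6 FPKM after it, so the groups overlapped (log2(FC) 0.22, 95% interval from -0.42 to 0.85, adjusted p = 0.659).

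The 6 subunits of the origin recognition complex gave no call in limma, against 6.87% of all mRNAs. An unadjusted p under 0.05 was reached by 0 of them and by 24.2% of all mRNAs. With 6 genes these counts cannot be set apart from those shares. ORC4 had 15.0, 16.1 and 11.4 FPKM before birth and 11.4, 11.9 and 14.3 FPKM after birth, with a log2(FC) of -0.15 (95% interval from -0.61 to 0.30). It was, with POLA1, one of the genes whose neonatal mean on the log2 scale was below the fetal one. For ORC2, ORC3 and ORC5 the log2(FC) was 0.00, 0.02 and 0.08, and each turned negative after median-of-ratios scaling or quantile normalization. Their 95% intervals reached from -0.98 to 0.98, from -0.49 to 0.53 and from -0.46 to 0.62, which leave out the changes of MCM2 to MCM5. ORC1, the subunit known to vary through the cell cycle, was at 0.369, 0.136 and 0.0259 FPKM before birth and at 0.337, 0.446 and 1.30 FPKM after birth (log2(FC) 0.49, adjusted p = 0.313). The filter was met by ORC1 only through the neonatal group, which favours a higher value there. ORC6 had 4.05, 0.629 and 3.98 FPKM against 3.73, 3.03 and 6.31 FPKM (log2(FC) 0.59, adjusted p = 0.480). In both genes a fetal sample overlapped the neonatal ones.

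**Figure D2:**
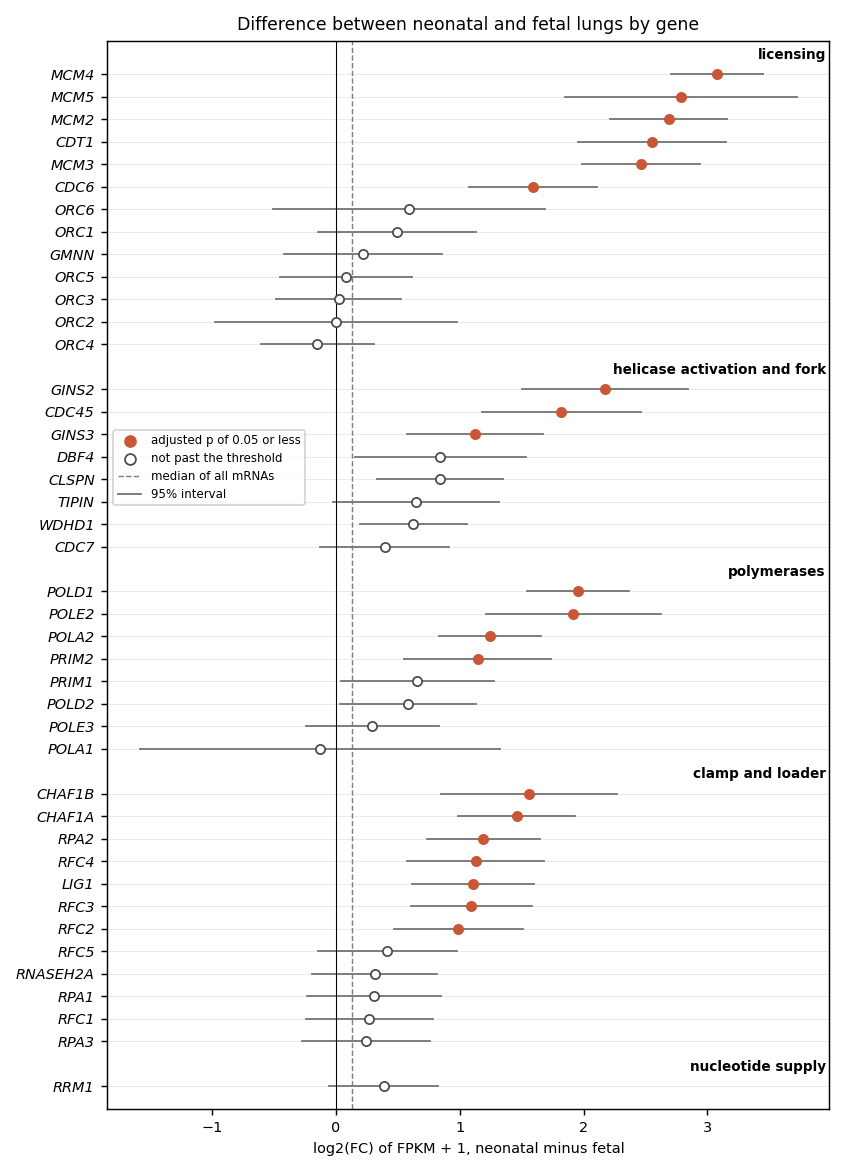
Difference of log2(FPKM + 1), neonatal minus fetal (horizontal), with its 95% interval from limma for each of the 42 genes, by role. Filled points passed an adjusted p of 0.05, and the dashed line is the median of all mRNAs at 0.13. GINS2 was named from the list of changed mRNAs, and CDC6 passed the filter only through the neonatal group. In the licensing role MCM2 to MCM5, CDT1 and CDC6 lie between 1.59 and 3.08, and the ORC genes and GMNN between -0.15 and 0.59.

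Of the 11 genes of helicase activation and the fork, 8 had a row, and 3 of these rose, GINS2 included, against 5.41% of all mRNAs. Without GINS2 and CLSPN, 2 of 6 rose, and in these 6 each neonatal value was above each fetal value, as in 20.9% of all mRNAs. CDC45, which joins the ring in the active helicase, had 5.58, 11.3 and 5.77 FPKM before birth and 25.2, 32.1 and 26.8 FPKM after birth (log2(FC) 1.82, standard error 0.27, adjusted p = 0.0123). It missed the threshold without Fetal1, Fetal3, Neonatal2 or Neonatal3, with adjusted p values of at most 0.0663. GINS2 went from 5.33, 3.44 and 6.88 FPKM to 19.4, 27.4 and 34.2 FPKM, a log2(FC) of 2.17 that is given without its test because of how the row was named. GINS3, from the same complex, went from 3.09, 1.88 and 2.54 FPKM to 5.94, 5.45 and 8.58 FPKM (log2(FC) 1.12, adjusted p = 0.0347). GINS3 missed the threshold when any 1 of the 6 samples was left out, at adjusted p values between 0.0638 and 0.146.

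The kinase subunits did not pass: CDC7 had 2.66 ± 0.794 and 3.73 ± 0.231 FPKM (n = 3 each, SD, log2(FC) 0.39, adjusted p = 0.324 in limma), and its activator DBF4 had 1.23 ± 0.456 and 3.07 ± 1.17 FPKM (n = 3 each, SD, log2(FC) 0.84, adjusted p = 0.139 in limma). The fork protection genes CLSPN, which relays stalled-fork signals to CHK1, and TIPIN, the partner of TIMELESS, had log2(FC) values of 0.84 and 0.65. TIPIN did not pass (adjusted p = 0.220 in limma). CLSPN did not pass either, and its highest value had to be a neonatal one, since it met the filter only through the neonatal group. WDHD1, which ties polymerase alpha to the helicase, had a log2(FC) of 0.62 (adjusted p = 0.0947). The 95% intervals of DBF4 and WDHD1 lay above 0, but neither gene passed once adjusted over all mRNAs.

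Of the 10 polymerase and primase genes, 8 had a row, and 4 rose, against 5.41% of all mRNAs. The 4 included genes of all 3 replicative polymerases. POLD1, the catalytic subunit of polymerase delta, was at 2.47, 2.66 and 2.93 FPKM before birth and at 12.7, 12.1 and 15.2 FPKM after birth (log2(FC) 1.96, standard error 0.18, adjusted p = 0.00262). POLE2, an accessory subunit of polymerase epsilon, was at 1.02, 0.171 and 0.530 FPKM against 3.42, 4.58 and 6.95 FPKM (log2(FC) 1.92, adjusted p = 0.0140). Without Fetal2, Fetal3, Neonatal2 or Neonatal3 its adjusted p lay between 0.0586 and 0.0758. POLA2, the regulatory subunit of polymerase alpha, was at 3.91, 3.95 and 3.23 FPKM against 9.07, 11.0 and 10.2 FPKM (log2(FC) 1.24, adjusted p = 0.0100, and at most 0.0577 without Fetal2 or Neonatal2). In these genes each neonatal value was above each fetal value, as in 20.9% of all mRNAs. PRIM2, the large primase subunit, rose from 2.58 ± 0.670 to 6.99 ± 2.11 FPKM (n = 3 each, SD, log2(FC) 1.14, adjusted p = 0.0411 in limma), a call that was lost without any 1 of the 6 samples, at adjusted p values between 0.0637 and 0.142.

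POLA1, the catalytic subunit of polymerase alpha, had the largest standard error of the 42 genes, 0.62. It stood at 4.65, 1.35 and 9.97 FPKM before birth and at 5.39, 1.40 and 6.27 FPKM after birth. Fetal2 and Neonatal2 were low, and the range of the neonatal samples lay inside that of the fetal samples. Its log2(FC) was -0.13 with a 95% interval from -1.58 to 1.33, which holds the rise of POLA2 and of PRIM2, and the value was 0.40 without Fetal3 and 0.37 without Neonatal2. PRIM1, the small primase subunit, had a log2(FC) of 0.66 (adjusted p = 0.186), and POLD2, which joins the subunits of polymerase delta, one of 0.58 (adjusted p = 0.189). POLE3, a histone-fold subunit of polymerase epsilon that also serves in chromatin remodelling, had 16.5 ± 1.59 and 20.9 ± 5.41 FPKM (SD, n = 3 each), and its groups overlapped (log2(FC) 0.29, adjusted p = 0.475 in limma).

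Of the 14 genes of the clamp, its loader, single-strand binding, primer processing and chromatin assembly, 12 had a row. Of these 7 rose, against 5.41% of all mRNAs. In the loader, RFC2, RFC3 and RFC4 rose, and RFC1 and RFC5 did not pass. RFC2 was the most abundant of the 42 genes in both groups, at 27.4, 23.6 and 21.4 FPKM before birth and at 37.0, 58.5 and 53.1 FPKM after birth (log2(FC) 0.99, adjusted p = 0.0433). RFC3 went from 4.43 ± 0.984 to 10.5 ± 1.31 FPKM and RFC4 from 2.78 ± 0.993 to 7.13 ± 0.986 FPKM (SD, n = 3 each), with log2(FC) values of 1.09 and 1.13. RFC1, the large subunit, had 7.97 ± 1.28 and 9.88 ± 2.36 FPKM (n = 3 each, SD, log2(FC) 0.27, 95% interval from -0.25 to 0.78). RFC5 had a log2(FC) of 0.41 with a 95% interval from -0.15 to 0.98, without overlap of the groups.

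Among the other genes of this role, CHAF1A, the large subunit of the factor that deposits histones behind the fork, was at 0.949, 0.636 and 0.841 FPKM before birth and at 3.24, 4.27 and 4.47 FPKM after birth (log2(FC) 1.46, standard error 0.20, adjusted p = 0.00929). Its partner CHAF1B was at 0.688, 1.24 and 1.91 FPKM against 3.59, 6.80 and 6.88 FPKM (log2(FC) 1.56, adjusted p = 0.0277). RPA2, the middle subunit of the single-strand binding protein, rose from 7.33, 6.16 and 7.66 FPKM to 14.0, 19.0 and 19.4 FPKM (log2(FC) 1.19, adjusted p = 0.0158). LIG1, the ligase that seals Okazaki fragments, rose from 6.21, 4.33 and 6.27 FPKM to 11.9, 15.8 and 11.9 FPKM (log2(FC) 1.11, adjusted p = 0.0259). In these 4 genes each neonatal value was above each fetal value, as in 20.9% of all mRNAs. RPA1 and RPA3, the other subunits of the binding protein, had log2(FC) values of 0.31 and 0.24, and RNASEH2A, which removes RNA from primers, one of 0.31. The groups of these 3 genes overlapped, and the upper ends of their 95% intervals were 0.85, 0.76 and 0.82.

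CHAF1A was lost without Fetal2 alone (adjusted p = 0.0606). RFC2, RFC3, LIG1, RPA2 and CHAF1B missed the threshold whenever a sample other than Neonatal1 was left out, at adjusted p values between 0.0525 and 0.154. RFC4 did so without Fetal1, Fetal2 or any neonatal sample, at adjusted p values between 0.0561 and 0.149.

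Of the 5 nucleotide supply genes only RRM1 had a row. RRM1 encodes the large subunit of ribonucleotide reductase, which makes deoxyribonucleotides, and it was at 8.81, 9.01 and 8.10 FPKM before birth and at 12.6, 9.34 and 13.2 FPKM after birth. The groups did not overlap, but Neonatal2 was barely above the fetal samples, and the log2(FC) of 0.39 did not pass (standard error 0.19, 95% interval from -0.05 to 0.83, adjusted p = 0.255).

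Ratios of partner genes, most of them subunits of 1 complex, were taken within each sample for 14 pairs, of which 10 had no overlap between the groups and 4 overlapped. The pairs were chosen after the values had been seen, and the smallest two-sided p of an exact permutation test on 3 against 3 samples is 0.1, so the ratios are given as values. The share of separated ratios among other gene pairs was not computed. Most pairs without overlap set a gene that rose over one that did not pass, so their separation largely restates the single genes. CDT1 stood at 0.102, 0.102 and 0.289 times the FPKM of its inhibitor gene GMNN in the fetal samples and at 0.840, 1.64 and 0.847 times in the neonatal samples. CDC6, which passed the filter only through the neonatal group, was between 0.00570 and 0.0161 times ORC4 before birth and between 0.133 and 0.278 times after it. The ratio of GINS2 to GINS3 was between 1.73 and 2.71 before birth and between 3.27 and 5.02 after it, with GINS2 named as described. POLD1 was between 0.419 and 0.671 times POLD2 in the fetal samples and between 1.30 and 1.72 times in the neonatal samples, so that the order of the 2 genes changed. POLE2 was at most 0.0602 times POLE3 before birth and between 0.2005 and 0.278 times after it. The ratios of RFC2, RFC3 and RFC4 to RFC1 did not overlap between the groups, but for RFC4 the highest fetal value, 0.604, was close to the lowest neonatal one, 0.633. The ratio of RPA2 to RPA1 was 1.003 in Fetal1 and 1.004 in Neonatal1, which leaves hardly a gap. That of RPA2 to RPA3 was between 0.637 and 0.813 before birth and between 1.17 and 2.07 after it. The ratios of RFC5 to RFC1 and of PRIM2 to PRIM1 overlapped. So did those of POLA2 to PRIM1, between 0.805 and 2.21 before birth and between 1.65 and 2.49 after it, and of CDC7 to DBF4, between 1.15 and 4.40 before birth and between 0.963 and 2.29 after it.

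**Figure D3:**
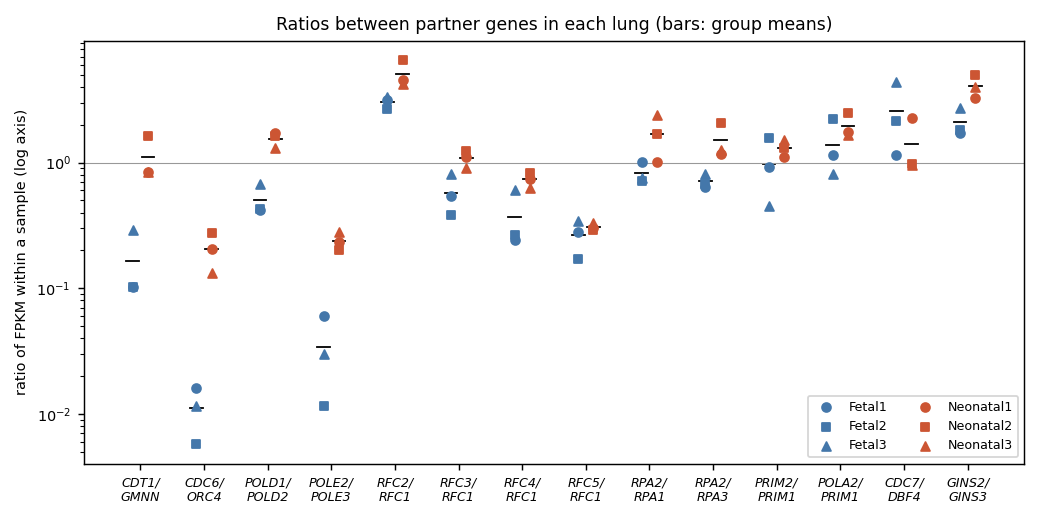
Ratio of the FPKM of a gene to that of a partner gene within each sample (vertical, log axis), fetal samples in blue and neonatal samples in orange, with bars at the group means. CDT1 to GMNN, POLD1 to POLD2 and POLE2 to POLE3 separate clearly, while RFC5 to RFC1, PRIM2 to PRIM1, POLA2 to PRIM1 and CDC7 to DBF4 overlap. CDC6 to ORC4 also separates, but CDC6 passed the filter only through the neonatal group. GINS2 was named from the list of changed mRNAs.

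The order of the genes by mean FPKM, a level per transcript length, was different in the 2 groups. In the fetal group RFC2, POLE3, ORC4, GMNN and RPA3 were the most abundant, and MCM4 ranked 28, MCM2 21, MCM3 31, CDT1 33 and MCM5 35 among the 42. In the neonatal group the order was RFC2, MCM4, CDC45, GINS2 and MCM2, with MCM3 at 7, CDT1 at 9 and MCM5 at 11. MCM4, CDC45, GINS2 and MCM2, at 29.1 ± 1.76, 28.1 ± 3.62, 27.0 ± 7.42 and 26.8 ± 4.01 FPKM (SD, n = 3 each), did not differ beyond their spread. ORC1, CLSPN, CDC6 and DBF4 were the least abundant genes in the neonatal group.

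Further genes of replication and of nucleotide metabolism were put in 2 lists. These were written from textbook knowledge with earlier results of these data known, so their counts are a description and not an independent test. Of 33 further replication genes 27 had a row, 12 rose and none fell, against 5.41% and 1.45% of all mRNAs. Their median log2(FC) was 0.74, and 15 reached an unadjusted p under 0.05 in limma, as did 24.2% of all mRNAs. DSCC1 and ASF1B passed the filter only through the neonatal group and DSCC1 and RNASEH2C were named from the list of changed mRNAs, and without these 3 genes 10 of 24 rose, with a median of 0.55. TOP2A, the topoisomerase that untangles replicated DNA, stood at 2.90, 1.80 and 2.67 FPKM before birth and at 22.3, 22.4 and 31.2 FPKM after birth (log2(FC) 2.92, adjusted p = 0.00147). The histone chaperone gene ASF1B was at 0.473, 0.365 and 0.119 FPKM against 8.40, 4.95 and 7.58 FPKM (log2(FC) 2.58). Its test is not given, because ASF1B passed the filter of the authors only through the neonatal group and its highest value had to lie there. UHRF1, which guides DNA methylation to new strands, was at 2.57, 1.23 and 1.55 FPKM against 18.4, 19.7 and 11.4 FPKM (log2(FC) 2.64, adjusted p = 0.00430). For TOP2A and UHRF1 each neonatal value was above each fetal value, as in 20.9% of all mRNAs. Both were past the threshold whichever sample was left out. The other 9 that rose, named with their values in view, were RECQL4, CHTF18, RNASEH2B, FBXO5, DNMT1, RNASEH2C, HELLS, DTL and MTBP, with log2(FC) values between 0.89 for MTBP and 1.91 for RECQL4. RECQL4 and CHTF18 passed whichever sample was left out, and the other 7 missed the threshold without 3 or more of the single samples, at adjusted p values between 0.0516 and 0.169. TOP2B, the related topoisomerase of dividing and non-dividing cells, had 23.5 ± 1.70 and 23.7 ± 3.85 FPKM (n = 3 each, SD, log2(FC) 0.00).

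Of 29 further nucleotide genes 20 had a row, 2 rose and 1 fell, against 5.41% and 1.45% of all mRNAs. Their median log2(FC) of 0.10 was near that of all mRNAs. CTPS1, which makes CTP in dividing cells, was at 1.01, 0.676 and 0.325 FPKM before birth and at 4.70, 3.57 and 3.93 FPKM after birth (log2(FC) 1.62, adjusted p = 0.00960, and 0.0610 without Fetal2). MTHFD1, a folate enzyme that feeds purine and thymidylate synthesis, was at 7.96, 6.75 and 7.42 FPKM against 12.7, 15.4 and 14.2 FPKM (log2(FC) 0.85, adjusted p = 0.0301, a call kept only in the absence of Neonatal1 among single samples, the other adjusted p values being 0.0823 to 0.123). PPAT, the first enzyme of purine synthesis, fell from 8.85, 6.78 and 8.62 FPKM to 2.998, 4.06 and 2.13 FPKM (log2(FC) -1.18, adjusted p = 0.0290, and between 0.0558 and 0.109 without any 1 of the 6 samples). The later purine genes PAICS, GART, ATIC and GMPS, named with their values in view, had log2(FC) values of 0.00, 0.34, 0.27 and -0.07, and none passed. RRM2B had no row.

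**Figure D4:**
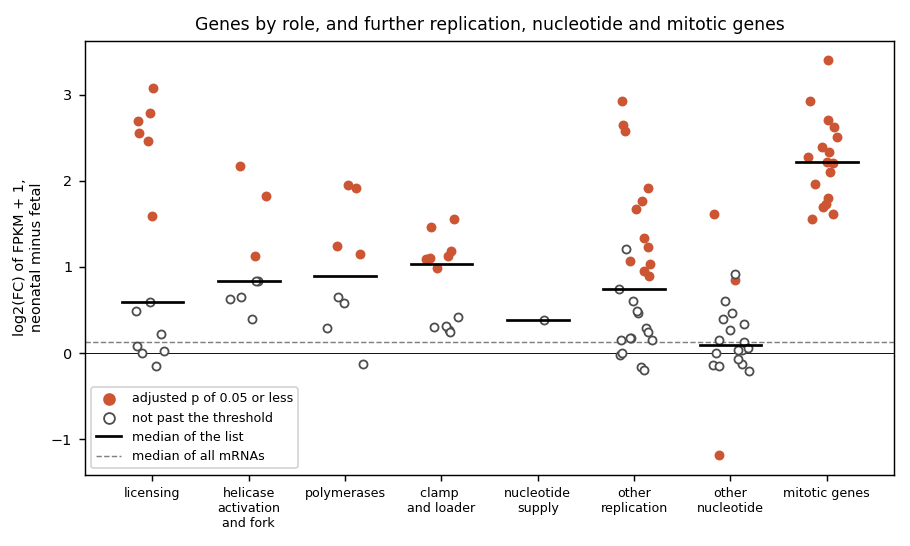
Difference of log2(FPKM + 1), neonatal minus fetal (vertical), of each gene with a row (points) in the 5 roles and in the lists of further replication, further nucleotide and mitotic genes, with bars at the medians. Filled points passed an adjusted p of 0.05. The medians of the roles with several genes lie between 0.59 and 1.04, that of the further nucleotide genes at 0.10 and that of the mitotic genes at 2.22.

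A list of 20 mitotic genes was set beside the replication genes, since both mark dividing cells. All 17 with a row rose, TOP2A among them, against 5.41% of all mRNAs. Their median log2(FC) was 2.22, with values between 1.56 and 3.40. The list was chosen with earlier results of these data known. The paper reports CCNA2, CCNB1, CCNB2, CDK1 and MKI67 from it as higher after birth in the same lungs. FOXM1 is named by the paper beside them as a cell cycle gene. No row was matched for MKI67 here. These counts are therefore a description and not an independent test. BUB1 and FOXM1 passed the filter only through the neonatal group, and AURKA and CCNA2 were named from the list of changed mRNAs. Without these 4, all 13 rose, with a median of 2.27 and values between 1.62 and 3.40. The mitotic genes summed to between 18.1 and 24.6 FPKM in the fetal samples and to between 163 and 219 FPKM in the neonatal samples.

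Markers of lung and blood cells were read in the same libraries. The surfactant gene SFTPC, which defines alveolar type II cells, was at 3171 to 8790 FPKM in the 6 samples, and it was detected in each. Of 8 neutrophil markers with a row, 4 rose (S100A8, S100A9, S100A12 and LTF), against 5.41% of all mRNAs. The summed FPKM of the 8 was between 86.6 and 159 in the fetal samples and between 855 and 1326 in the neonatal samples. Of these, S100A9 and S100A12 were named from the list of changed mRNAs, and MMP8 passed the filter only through the neonatal group. Without these 3 genes 2 of 5 rose, and LTF was lost without any single sample other than Fetal3, at adjusted p values of up to 0.118 in limma. The neutrophil granule gene ELANE was listed at 0 in all 3 neonatal samples. None passed among 7 macrophage, 8 erythroid, 9 lymphocyte, 7 alveolar type II, 4 alveolar type I, 6 endothelial and 5 mesenchymal markers, where an unadjusted p under 0.05 was reached by 4, 1, 4, 1, 0, 2 and 2 genes and by 24.2% of all mRNAs. Among these C1QC, SFTPA1 and CLDN5 were named from the list of changed mRNAs, and the erythroid factor KLF1 passed the filter only through the neonatal group. Summed FPKM ranged from 403 to 940 before birth and from 675 to 1592 after it for the macrophage markers, and from 1236 to 2691 and from 905 to 1474 for the erythroid markers. For the lymphocyte markers these ranges were 18.3 to 20.5 and 17.1 to 39.8, with MS4A1 listed at 0 in Neonatal2. The summed levels ranged from 4812 to 5368 and from 6497 to 11721 for alveolar type II markers and from 837 to 1250 and from 721 to 1340 for alveolar type I markers. They ranged from 486 to 594 and from 648 to 928 for endothelial markers, or from 288 to 329 and from 271 to 312 without CLDN5, and from 882 to 1119 and from 1175 to 1504 for mesenchymal markers. The part of these cells in the rise of the replication genes was not tested.

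The summed FPKM of all mRNAs differed between the libraries, from 339491 to 777982, and was higher in each neonatal sample than in each fetal one. The table holds no read counts, so the spread between the 3 piglets of a group was the only error available. Set against its fetal mean, the median gene of the 42 was at 0.10, -0.05 and 0.01 on the log2 scale before birth and at 0.64, 0.92 and 1.08 after it. Over all mRNAs these medians were between -0.05 and 0.06 in the fetal samples and between 0.05 and 0.19 in the neonatal samples. With median-of-ratios scaling the median of all mRNAs moved from 0.13 to -0.01, that of the 42 genes from 0.84 to 0.74, and 19 of the 42 rose.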

How the data were processed

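Ribo-Zero strand-specific libraries of whole lung were made by the authors from 3 fetal and 3 neonatal piglets. The authors mapped the reads to Sscrofa10.2 with TopHat 2.1.0 and deposited FPKM per gene from Cufflinks 2.2.1, keeping mRNAs with FPKM above 0.5 in at least 1 sample. All 14579 deposited rows met this filter, and the fitted values are these FPKM with no further scaling. The lncRNA table was not used here. Columns were matched to samples by name, and 0 were left unmatched.

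Rows took their symbol from pig Ensembl gene names (9478 rows) or, where none was given, from the authors' table of differentially expressed mRNAs (362 rows). Only its names were used, not its fold changes, q-values or FPKM. GINS2 and 9 genes of the further lists were named in this second way, so counts are also given without them and without genes that passed the filter only through the neonatal group, a choice made after the data were seen. These names come from a later annotation than the mapping.

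Differences were fitted on log2(FPKM + 1) over all rows with limma 3.58.1 in R 4.3.3, letting the prior variance follow the mean, with Benjamini-Hochberg adjustment and a threshold of 0.05. The paper's Cuffdiff needs reads, which were not used here. Intervals are at 95% from the moderated standard error. The fit was tested on simulated data. Figures were drawn with matplotlib 3.10.9 in Python 3.11.15.

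The alternatives were pseudocounts of 0.5 and 0.1, a stricter filter (3 or more samples with FPKM above 1), scaling by median of ratios, quantile normalization, no trend, a replicate block, and each sample left out. The genes, the further replication, nucleotide and mitotic lists and the marker lists were chosen with earlier results of these data known. Values per sample are given for the MCM genes, for the 3 genes of each role and list with the lowest adjusted p, for genes lower in the neonatal group, for RRM1, and for further genes chosen with their values in view. Replicates are separate piglets. Promoter and protein sequences were not analysed here.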

Additional observations from a re-analysis of the deposited data

How the results depend on the processing

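The rise of 20 of the 42 genes, GINS2 included, was met in direction by every alternative, and 20, 20, 20, 19, 20 and 19 of them passed with pseudocounts of 0.5 and 0.1, the stricter filter (which dropped ORC1), median-of-ratios scaling, quantile normalization and no trend. RFC4 was lost under median-of-ratios scaling and RFC2 without a trend. With 1 sample left out, between 7 and 17 passed, and of the further replication and nucleotide genes between 5 and 13, against 15 with all samples. Of all mRNAs between 196 and 944 passed, against 1001. With fewer samples the spread is estimated from fewer values. Of the calls on all mRNAs, 78.8% were higher in the neonatal group, against 66.0% after median-of-ratios scaling and 57.9% after quantile normalization. The median log2(FC) of the 42 genes, 0.84, was 1.01 and 1.23 with pseudocounts of 0.5 and 0.1, which raise the change of low genes by construction, and lay between 0.80 and 1.03 with 1 sample left out.

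The direction turned only for genes that passed nowhere. ORC2, at 0.00, was -0.0075 and -0.018 with pseudocounts of 0.5 and 0.1, and -0.15 and -0.14 after median-of-ratios scaling and quantile normalization. Under these scalings ORC3 was at -0.12 and -0.10 and ORC5 at -0.074 and -0.076. With 1 sample left out, ORC2 ranged from -0.24 to 0.44, ORC3 from -0.16 to 0.12, ORC5 from -0.12 to 0.23, GMNN from -0.015 to 0.45 and POLA1 from -0.71 to 0.40.

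Replicate numbers are shared between the groups, but the piglets of the 2 groups came from different sows. Deviations of same-numbered samples from their group means correlated between -0.041 and 0.00047. Correlations near 0 cannot by themselves show that samples are unpaired. With the replicate block 13 of the 42 genes, 6 further replication and nucleotide genes and 401 mRNAs passed. No sample correlated best with its own number.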

Other observations

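In several replication genes a sample stood far from the others of its group, and 3 of them are described here. Others, such as ORC2 in Neonatal2 and POLE2 in Fetal2, are not. MCM5 was at 0.213 FPKM in Fetal3 against 2.47 and 1.84 FPKM in Fetal1 and Fetal2, while MCM2, MCM3 and MCM4 were not low in Fetal3. ORC6 was at 0.629 FPKM in Fetal2 against 4.05 and 3.98 FPKM in the other fetal samples. POLA1 was at 1.35 FPKM in Fetal2 and 1.40 FPKM in Neonatal2 against 4.65 FPKM or more in the other 4 samples. These genes were singled out after their values had been seen, and groups of 3 are too small for a test of an outlying value.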
